A study of Mus musculus with 8 samples.

Results

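RNA of Gr-1+ cells from skin wounds was set against RNA of Gr-1+ cells from bone marrow in nondiabetic mice. Gr-1 is the myeloid surface antigen formed by Ly6G, carried by neutrophils, and Ly6C, carried mainly by inflammatory monocytes. The wound group was 2 pools and the marrow group 2 pools, each of 5 C57BL/6 mice of both sexes, aged 8 to 16 weeks and heterozygous for the leptin receptor gene (Lepr +/-). The series' design text describes 2 sets of 5 nondiabetic mice pooled for both tissues, so the tissues shared animals. The main fit and its p-values did not use this pairing. A fit with pool numbers taken as pairs is given near the end. Each mouse had received 2 excisional wounds of 8 mm on the back. Wounds with a 2 mm border of skin, and marrow, were taken on day 3, so the marrow also came from wounded mice and no group was unwounded. Tissue was digested with enzymes and the cells were drawn out with magnetic beads. The labels carry this text for every library and do not say plainly whether marrow was digested too. Diabetic mice of the same strain (Lepr -/-, 2 wound and 2 marrow pools) entered the fit for its estimate of spread and a single comparison at the end. Members were loci with a gene name, an estimate with status OK in all 4 nondiabetic libraries and a length of at least 200 bp, which left 27066 of 39330 loci under 14899 gene names. Just inside that length stood Ndufb4, Gm13547 and Clca1 at 200 bp, and just outside it Gm13384, Gm14108 and Trim43c at 199 bp. Of these names, 12473 had an FPKM (fragments per kilobase of transcript, scaled to the mapped fragments of the library) that reached 1 in 2 or more nondiabetic libraries. These were tested, and the other 2426 were not.

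Neutrophils are made in the marrow, where their precursors fill granules in a set order. Primary granules come first, secondary and gelatinase granules follow, and secretory vesicles come last. Mature cells stop making most granule proteins, leave for the blood and enter injured skin within hours, where monocytes follow and become macrophages. In the wound such cells meet microbial and damage signals, switch on genes controlled by the transcription factor NF-kB, and release cytokines and growth factors.

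Total read numbers were not given with the FPKM values. The steps between low values put the depth of wound pools 1 and 2 at about 1.27 and 1.12 times, and of marrow pool 1 at about 0.835 times, that of marrow pool 2. This is approximate, since 15.1% to 23.0% of low loci lay within 0.05 (log2) of the modal ratio. Spearman correlations across genes were 0.984 between the wound pools, 0.988 between the marrow pools and 0.631 to 0.635 between tissues, where genes are not independent replicates. Differences are given as wound minus marrow on the log2(FPKM + 1) scale, which understates the change of genes of low level, with the standard error (SE) and the Benjamini-Hochberg adjusted p of limma over all genes tested. Each group has n = 2 pools, and the p-values cover the spread between pools only. At an adjusted p under 0.05 and a difference of at least 1, 2475 genes were higher in wound cells (19.8% of those tested) and 3928 were lower (31.5%). Without the limit on size 88.4% passed, 3991 genes higher (32.0%) and 7034 lower (56.4%), and in 93.5% of genes the wound and marrow values did not overlap. Against that background, passing the test or not overlapping is common, and the size of a difference carries more. Counts of list members by at least 1, given below without another setting, are to be read beside 19.8% of all genes higher and 31.5% lower. With a pseudocount of 5, 1074 of the 12473 genes were higher and 2250 lower by at least 1. Quantile scaling gave 2642 and 2943, and median-ratio scaling 3193 and 2392. List counts under those settings are to be read beside these. The median over all genes tested was -0.45. Quantile scaling moved it by 0.32 and gave 4901 higher and 5834 lower calls, and median-ratio scaling moved it by 0.44 and gave 5321 higher and 5414 lower calls.

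The labelled cells were first set against markers. Ly6g (chromosome 15, 74987123 to 74989169, mm9), the neutrophil part of the sorted antigen, was at 17.2 and 19.2 FPKM in the wound pools, against 808 and 899.5 FPKM in the marrow pools. Both wound values lay far below both marrow values (difference -5.48, SE 0.0708, adjusted p = 1.37e-08). A joint locus of Ly6a, Ly6c1 and Ly6c2, which holds the monocyte part of the antigen, was listed at 142 and 143 FPKM in the wound pools, against 2869.5 and 2978 FPKM in the marrow pools. The difference of this joint locus was -4.35, and the genes in it cannot be told apart. S100a8, a chain of calprotectin, stood at 1008 and 994 FPKM in the wound pools. S100a9, the other chain, stood at 5864 and 6378 FPKM there. In both marrow pools they had too many reads for an estimate, so they are not compared. The same status left Ngp, Ltf and the joint locus of the lysozyme genes without a value in marrow pool 2. Lepr was at 4.95 and 4.66 FPKM in the wound pools, against 0.477 and 0.689 FPKM in the marrow pools, lower in both marrow pools than in both wound pools, and the labels place the heterozygous allele in both tissues.

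Marker genes of several cell types moved with tissue. In the neutrophil list 7 of 9 tested members were lower in wound cells by at least 1 and 1 was higher, and the level summed over the 9 was 1134 and 1191 FPKM in the wound pools, against 24907 and 25869.8 FPKM in the marrow pools. Retnlg, a resistin-like protein of neutrophils, was at 307 and 344 FPKM in the wound pools, against 5160.0 and 5740.0 FPKM in the marrow pools. Retnlg was lower in both wound pools (difference -4.06, SE 0.0872, adjusted p = 7.49e-08). In the monocyte or macrophage list 6 of 9 were higher by at least 1 and 1 was lower, with a summed level of 309 and 317 FPKM in the wound pools, against 84.2 and 89.1 FPKM in the marrow pools. C1qa, a chain of the complement protein C1q made by macrophages, was at 98.6 and 94.0 FPKM in the wound pools, against 9.23 and 9.14 FPKM in the marrow pools. Its wound values were both high (difference 3.26, SE 0.0363, adjusted p = 1.1e-08). Ccr2 and Cx3cr1, receptors of circulating monocytes, were lower in wound cells by differences of -0.83 and -1.39. In the dendritic cell list 6 of 7 were higher by at least 1, and 2 of 7 with a pseudocount of 5. Ccr7, the receptor that guides cells to lymph nodes, was at 97.6 and 102 FPKM in the wound pools, against 0.602 and 0.513 FPKM in the marrow pools. No value of Ccr7 overlapped, and it was higher in wound cells (difference 6.02, SE 0.0456, adjusted p = 5.44e-09).

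**Figure D1:**
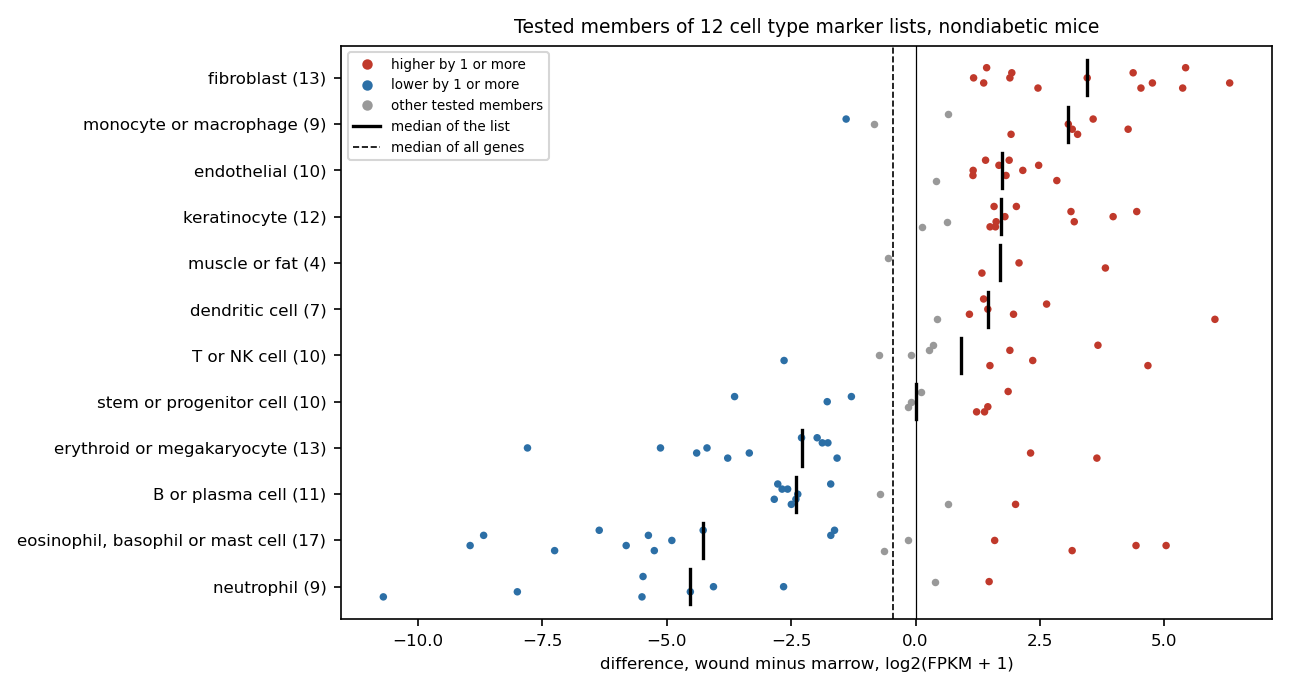
Difference between wound and marrow (x axis, log2(FPKM + 1)) of each tested member of 12 cell type marker lists (y axis, number tested in brackets), with the median of each list as a solid bar and that of all genes as a dashed line. Fibroblast markers lie furthest to the right, with a median of 3.45, and neutrophil markers furthest to the left, with a median of -4.53.

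Markers of skin cells were also higher in the wound libraries. Among fibroblast markers 13 of 13 tested rose by at least 1, and 8 of 13 with a pseudocount of 5, with a summed level of 539 and 538 FPKM in the wound pools, against 12.8 and 8.43 FPKM in the marrow pools. Col1a2, the tested fibroblast marker of highest mean level, lay on a locus of 225 bp. It was at 231 and 228 FPKM in the wound pools, against 7.43 and 2.71 FPKM in the marrow pools (difference 5.37, SE 0.364). Col3a1, a fibrillar collagen, was at 88.0 and 86.8 FPKM in the wound pools, against 0.104 and 0.121 FPKM in the marrow pools. Col3a1 stood higher in each wound pool (difference 6.31, SE 0.0411, adjusted p = 5.06e-09). Among keratinocyte markers 10 of 12 rose by at least 1, and 5 of 12 with a pseudocount of 5, with a summed level of 109 and 121 FPKM in the wound pools, against 26.8 and 31.2 FPKM in the marrow pools. Lgals7, a galectin of epidermis, was at 20.7 and 23.1 FPKM in the wound pools, against 0.0391 and 0.0638 FPKM in the marrow pools, and Krt1 and Trp63 were listed at 0 in both marrow pools. Dsg3, on a locus of unknown strand, and Sfn rose by less, with differences of 0.62 and 0.12. In the marrow pools Dsg3 was at 15.45 and 19.52 FPKM and Sfn at 7.27 and 7.26 FPKM, most of the marrow sum. Endothelial markers rose by at least 1 in 9 of 10, and in 3 of 10 with a pseudocount of 5, with a summed level of 56.2 and 57.8 FPKM in the wound pools, against 14.6 and 15.8 FPKM in the marrow pools. The muscle or fat list had 4 tested members, of which 3 rose, with a summed level of 92.5 and 96.9 FPKM in the wound pools, against 11.3 and 11.9 FPKM in the marrow pools. Most of the wound sum was Fabp4, at 58.9 and 62.4 FPKM, and Lpl, at 31.5 and 32.1 FPKM. The muscle gene Mylpf was lower in wound cells, with a difference of -0.55. Markers of other blood cells were mixed. The T or NK cell list rose by at least 1 in 5 of 10 tested (3 with a pseudocount of 5), fell in 1 and had a summed level of 76.1 and 80.6 FPKM in the wound pools, against 13.6 and 14.7 FPKM in the marrow pools, with Cd4, Cd8a and Lck under the limit on low values. B or plasma cell markers fell by at least 1 in 8 of 11 (4 with a pseudocount of 5), with a summed level of 22.8 and 23.4 FPKM in the wound pools, against 103 and 117 FPKM in the marrow pools. The signalling adaptor gene Blnk of that list rose by 2.01. Erythroid or megakaryocyte markers fell by at least 1 in 11 of 13 (7 with a pseudocount of 5), with a summed level of 125 and 135 FPKM in the wound pools, against 6345 and 6379 FPKM in the marrow pools. The other 2, the platelet chemokine genes Pf4 and Ppbp, rose by 3.64 and 2.31. The list of eosinophil, basophil or mast cell genes was split, with 11 of 17 lower and 4 higher by at least 1 and summed levels of 115 and 117 FPKM in the wound pools, against 2588 and 2831 FPKM in the marrow pools. Those higher were the mast cell proteases Cma1, Tpsb2, Tpsab1 and Cpa3, and Cma1 was at 36.2 and 34.5 FPKM in the wound pools, against 0.133 and 0.0894 FPKM in the marrow pools. Those lower included Prg2 and Epx, granule proteins of eosinophils, and Mcpt8 and Prss34, proteases of basophils. Stem or progenitor cell markers had 4 of 10 higher and 3 lower by at least 1, and 0 and 1 with a pseudocount of 5 (35.3 and 34.9 FPKM in the wound pools, against 47.9 and 52.6 FPKM in the marrow pools).

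In such bulk pools, fewer cells of a type and less RNA per cell cannot be told apart. If marrow was not digested as wounds were, an effect of digestion and one of tissue cannot be told apart either. The part of the other cell types in the results that follow was not tested.

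The largest differences ran in both directions. Of genes past the test with no overlap, a mean of at least 10 FPKM in the higher tissue and a locus of their own, the 15 largest each way are plotted by library. Among those higher in wound cells, Ccrl2 (chromosome 9, 110957339 to 110959774, mm9), a receptor that binds the chemoattractant chemerin, was at 352 and 377 FPKM in the wound pools, against 0.886 and 0.831 FPKM in the marrow pools. Both marrow values were under 1 FPKM (difference 7.62, SE 0.0869, adjusted p = 1.11e-08). Rgs1, which shortens signalling from chemokine receptors, was at 499.9 and 547 FPKM in the wound pools, against 1.96 and 1.90 FPKM in the marrow pools. Rgs1 was higher in both wound pools (difference 7.48, SE 0.104, adjusted p = 1.72e-08). Saa3, an acute-phase protein made at sites of injury, was at 226 and 222 FPKM in the wound pools, against 1.06 and 0.886 FPKM in the marrow pools. No value of Saa3 overlapped, and it was higher in wound cells (difference 6.83, SE 0.0537, adjusted p = 5.73e-09). Fam71f2 was at 249 and 263 FPKM in the wound pools, against 0.474 and 0.346 FPKM in the marrow pools. Fam71f2 stood higher in each wound pool (difference 7.51, SE 0.0736, adjusted p = 7.94e-09). The chemokine gene Ccl5 lay on a locus of unknown strand at 223 and 274 FPKM in the wound pools, against 0.623 and 1.56 FPKM in the marrow pools. Ccl5 was higher in both wound pools (difference 6.93, SE 0.413, adjusted p = 6.93e-06). On the annotated strand its difference was 5.05.

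Some of these largest values had less behind them. Rbbp8, a DNA repair factor and the first of those plotted, was at 644 and 1282 FPKM in the wound pools and listed at 0 in both marrow pools. Its locus ran on the strand opposite to the annotated gene, and on the annotated strand its difference was 1.08. BC002059, a gene model left out by the naming rule and given after its value was seen, had a larger difference (10.79, SE 2.13, adjusted p = 0.00292). Its wound pools were far apart, at 542 and 5747 FPKM, and its locus also lay opposite to the annotated strand. Slco1a1, an organic anion transporter, was at 67.5 and 131 FPKM in the wound pools and listed at 0 in both marrow pools. For these listed zeros no fold is given. Cxcl1, a chemokine that attracts neutrophils, was at 1055 and 1101 FPKM in the wound pools, against 4.52 and 1.99 FPKM in the marrow pools. The wound values were both high (difference 8.05, SE 0.612, adjusted p = 7.62e-05, in a fit that lacks diabetic wound pool 1, where it had no estimate).

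**Figure D2:**
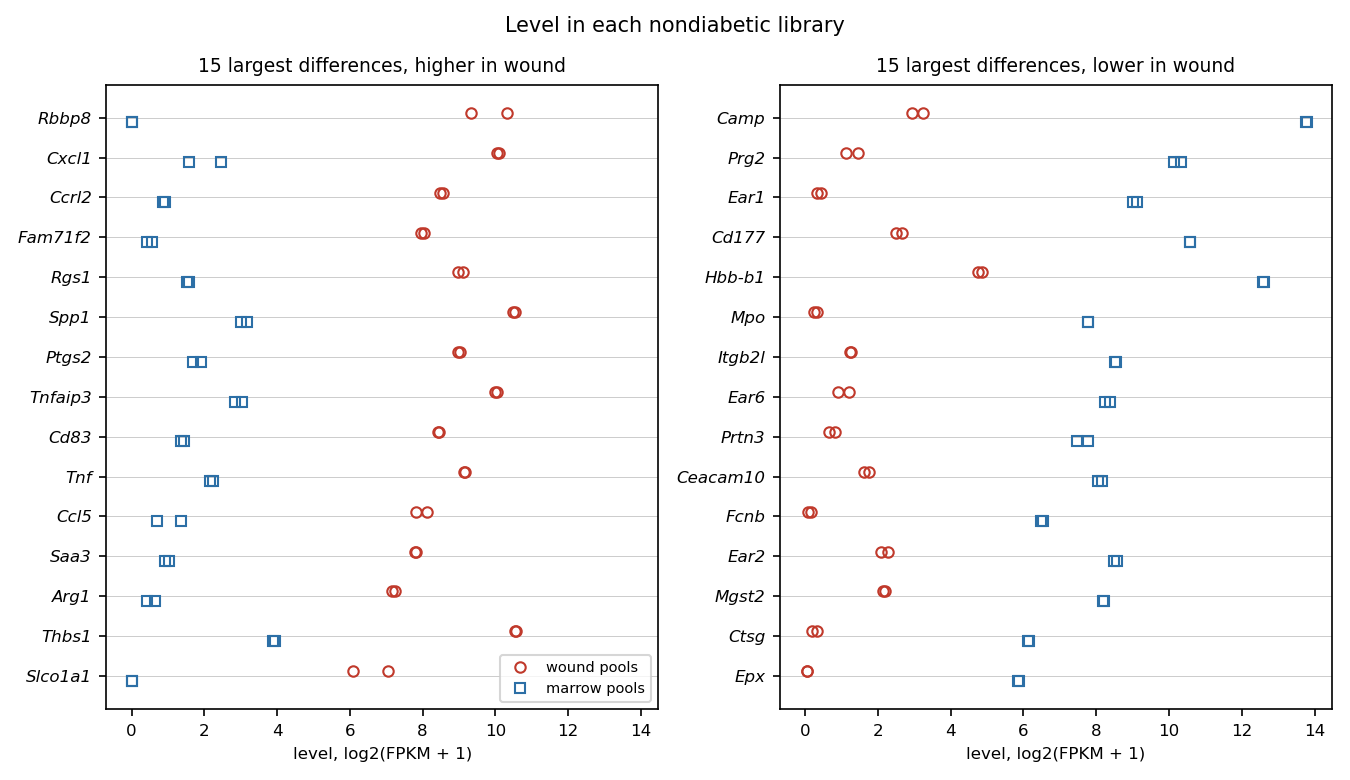
Level in each nondiabetic library (x axis, log2(FPKM + 1)) of the 15 genes with the largest differences in each direction among those the naming rule takes (y axis), with circles for the 2 wound pools and squares for the 2 marrow pools. The symbols of the tissues stand apart in every row, from Rbbp8 (difference 9.83) at the top left to Camp (difference -10.69) at the top right.

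Among the genes lower in wound cells, those of neutrophil and eosinophil granules and of red cells stood out by size. Camp, which encodes the antimicrobial peptide cathelicidin, was at 6.71 and 8.38 FPKM in the wound pools, against 14000.0 and 14150.0 FPKM in the marrow pools, low in both wound pools. Its difference was the lowest of all genes tested (-10.69, SE 0.126, adjusted p = 1.16e-08). Prg2, the major basic protein of eosinophil granules, was at 1.17 and 1.74 FPKM in the wound pools, against 1134 and 1274 FPKM in the marrow pools. No value of Prg2 overlapped, and it was lower in wound cells (difference -8.95, SE 0.135, adjusted p = 2.24e-08). Ear1, Ear2 and Ear6, ribonucleases of eosinophils that are close relatives in sequence and may share reads, had differences of -8.68, -6.36 and -7.25. Hbb-b1, an adult beta globin, was at 25.7 and 28.1 FPKM in the wound pools, against 6183 and 6216 FPKM in the marrow pools. Hbb-b1 stood lower in each wound pool (difference -7.80, SE 0.0698, adjusted p = 6.58e-09). Mgst2, an enzyme of leukotriene and glutathione metabolism, was at 3.56 and 3.38 FPKM in the wound pools, against 289 and 297 FPKM in the marrow pools. Mgst2 was lower in both wound pools (difference -6.04, SE 0.166, adjusted p = 1.99e-07).

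Genes of granule contents were taken in the order in which the granules form. Of 12 primary granule genes 10 were tested, and 6 were lower and 2 higher in wound cells by at least 1 (median -3.45). Mpo (chromosome 11, 87607083 to 87617915, mm9), the enzyme myeloperoxidase, was at 0.192 and 0.247 FPKM in the wound pools, against 216 and 219 FPKM in the marrow pools. Both wound values were under 1 FPKM (difference -7.48, SE 0.0359, adjusted p = 2.56e-09). Prtn3, the serine protease proteinase 3, was tested on a locus of 225 bp. It was at 0.581 and 0.769 FPKM in the wound pools, against 217 and 177 FPKM in the marrow pools. No value of Prtn3 overlapped, and it was lower in wound cells (difference -6.88, SE 0.117, adjusted p = 3.2e-08). Ctsg, cathepsin G, was at 0.133 and 0.251 FPKM in the wound pools, against 70.7 and 68.9 FPKM in the marrow pools. Ctsg stood lower in each wound pool (difference -5.89, SE 0.0631, adjusted p = 1.03e-08). Serpinb1a, an inhibitor that guards the cell against these proteases, was at 9.18 and 10.2 FPKM in the wound pools, against 361 and 399 FPKM in the marrow pools. Serpinb1a was lower in both wound pools (difference -5.15, SE 0.0706, adjusted p = 1.65e-08). Elane, neutrophil elastase, was tested on a locus of unknown strand with a difference of -0.67, and on the annotated strand the difference was -7.86. The members higher by at least 1 were Srgn and Ctsc. Srgn, a proteoglycan core that packs granule cargo in many blood cells, was at 562 and 560.3 FPKM in the wound pools, against 105 and 103 FPKM in the marrow pools. No value of Srgn overlapped, and it was higher in wound cells (difference 2.42, SE 0.0371, adjusted p = 2.34e-08). Ctsc, which activates granule proteases, was at 307 and 296 FPKM in the wound pools, against 75.9 and 75.4 FPKM in the marrow pools. Ctsc stood higher in each wound pool (difference 1.98, SE 0.0387, adjusted p = 5.25e-08).

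The 250 bases before the start of Mpo and Prtn3 are shown because they are the primary granule genes of largest difference that hold the letters GAGGAAGT, a form of the purine-rich word bound by PU.1. They are RefSeq sequences of build GRCm38.p6, Mpo at chr11:87793534-87793783 on the plus strand and Prtn3 at chr10:79879417-79879666 on the plus strand, and capitals mark the word on either strand.
Mpo: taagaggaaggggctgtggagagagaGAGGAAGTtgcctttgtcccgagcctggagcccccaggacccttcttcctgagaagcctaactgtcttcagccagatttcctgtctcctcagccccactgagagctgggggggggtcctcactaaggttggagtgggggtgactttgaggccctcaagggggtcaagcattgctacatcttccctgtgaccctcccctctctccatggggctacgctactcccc
Prtn3: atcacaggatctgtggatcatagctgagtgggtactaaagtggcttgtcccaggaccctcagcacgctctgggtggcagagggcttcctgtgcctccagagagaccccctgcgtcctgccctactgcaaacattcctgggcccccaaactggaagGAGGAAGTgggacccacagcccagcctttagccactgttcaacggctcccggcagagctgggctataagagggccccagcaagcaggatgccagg
The word begins 224 bases before the Mpo start and 95 bases before the Prtn3 start. It stood in 4 of 9 promoters found (44.4%, against 2.79% of the promoters of 27025 genes). With the 50 bases after the start included, the shares were 55.6% against 3.69%. This and the other 3 words shown were kept from 14 words, each searched in 4 gene lists, after their counts in those lists had been seen. The window was also shortened to 250 bases after results were seen. The shares therefore describe the lists and support nothing.

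Secondary granule genes were lower as a group of values: of 22 listed, 13 were tested and 13 were lower by at least 1 (median -5.20), beside 31.5% of genes. Of the other 9, Ltf and Ngp had a failed estimate, Lyz2 had its main signal on the joint lysozyme locus with a failed estimate, Chi3l3, Orm1 and Lyz1 lay on joint loci, and Cyba, Hp and Bpi were not tested. Lcn2, lipocalin 2, which binds bacterial iron carriers, was at 121 and 127 FPKM in the wound pools, against 2749 and 2901 FPKM in the marrow pools. Lcn2 was lower in both wound pools (difference -4.50, SE 0.0516, adjusted p = 1.13e-08). Anxa1, annexin A1, a lipid-binding protein that restrains neutrophil entry, was at 118 and 122 FPKM in the wound pools, against 2621 and 2786 FPKM in the marrow pools. No value of Anxa1 overlapped, and it was lower in wound cells (difference -4.49, SE 0.0532, adjusted p = 1.16e-08). Cd177, a surface protein of neutrophils, was at 4.604 and 5.31 FPKM in the wound pools, against 1525 and 1520.0 FPKM in the marrow pools. Cd177 stood lower in each wound pool (difference -8.001, SE 0.0614, adjusted p = 5.44e-09). Itgb2l, a beta integrin of neutrophils, was at 1.34 and 1.38 FPKM in the wound pools, against 364 and 374 FPKM in the marrow pools. Itgb2l was lower in both wound pools (difference -7.29, SE 0.0334, adjusted p = 2.56e-09). Cybb, the catalytic subunit of the phagocyte oxidase, fell least among them, at 108 and 110.2 FPKM in the wound pools, against 568 and 608 FPKM in the marrow pools. No value of Cybb overlapped, and it was lower in wound cells (difference -2.42, SE 0.0446, adjusted p = 4.27e-08).

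Fcnb, a ficolin that recognises microbial sugars, and Mmp8, a collagenase, are shown because they were the secondary granule genes of largest difference (-6.38 and -5.50) with the letters TTGCNNAA before their start, a form of the word bound by C/EBP factors. The stretches are chr2:28084879-28085128 on the minus strand and chr9:7558179-7558428 on the plus strand (RefSeq, GRCm38.p6), with the word in capitals on either strand.
Fcnb: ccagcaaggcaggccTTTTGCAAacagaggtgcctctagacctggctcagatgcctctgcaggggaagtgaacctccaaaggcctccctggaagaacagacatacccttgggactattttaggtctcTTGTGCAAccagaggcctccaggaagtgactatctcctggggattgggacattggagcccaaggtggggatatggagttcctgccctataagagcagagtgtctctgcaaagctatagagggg
Mmp8: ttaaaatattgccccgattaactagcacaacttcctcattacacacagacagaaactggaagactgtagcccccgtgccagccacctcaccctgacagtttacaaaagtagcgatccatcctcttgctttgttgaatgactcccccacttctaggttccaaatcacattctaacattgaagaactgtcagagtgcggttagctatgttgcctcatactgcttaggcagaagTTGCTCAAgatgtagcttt
The word begins 235 and 123 bases before the Fcnb start and 19 bases before the Mmp8 start. It stood in 7 of 19 promoters found (36.8%, against 10.8% of the promoters of 27025 genes), and with the 50 bases after the start in 36.8% against 12.2%.

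Gelatinase granules and secretory vesicles, the last to form, were mixed, with 9 of 15 tested genes lower and 4 higher by at least 1 (median -1.41). Mmp9, gelatinase B, was at 63.0 and 65.0 FPKM in the wound pools, against 1518 and 1472 FPKM in the marrow pools. Mmp9 stood lower in each wound pool (difference -4.52, SE 0.0444, adjusted p = 7.94e-09). Itgb2, the beta chain of the leukocyte integrins, was at 80.8 and 85.6 FPKM in the wound pools, against 500.4 and 514 FPKM in the marrow pools. Itgb2 was lower in both wound pools (difference -2.59, SE 0.0417, adjusted p = 2.71e-08). Fcgr3, a low-affinity antibody receptor, was at 252 and 259.5 FPKM in the wound pools, against 464 and 499 FPKM in the marrow pools. No value of Fcgr3 overlapped, and it was lower in wound cells (difference -0.91, SE 0.0565, adjusted p = 8.55e-06). Cd14 (chromosome 18, 36884728 to 36886390, mm9), the co-receptor for bacterial lipopolysaccharide, went the other way at 806 and 874 FPKM in the wound pools, against 10.4 and 10.4 FPKM in the marrow pools. Both wound values were far above both marrow values (difference 6.20, SE 0.0713, adjusted p = 1.13e-08). Arg1, an enzyme that degrades arginine, was at 143 and 150.1 FPKM in the wound pools, against 0.568 and 0.338 FPKM in the marrow pools. Arg1 stood higher in each wound pool (difference 6.67, SE 0.103, adjusted p = 2.37e-08). Macrophage markers were higher in the same libraries, as given above.

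**Figure D3:**
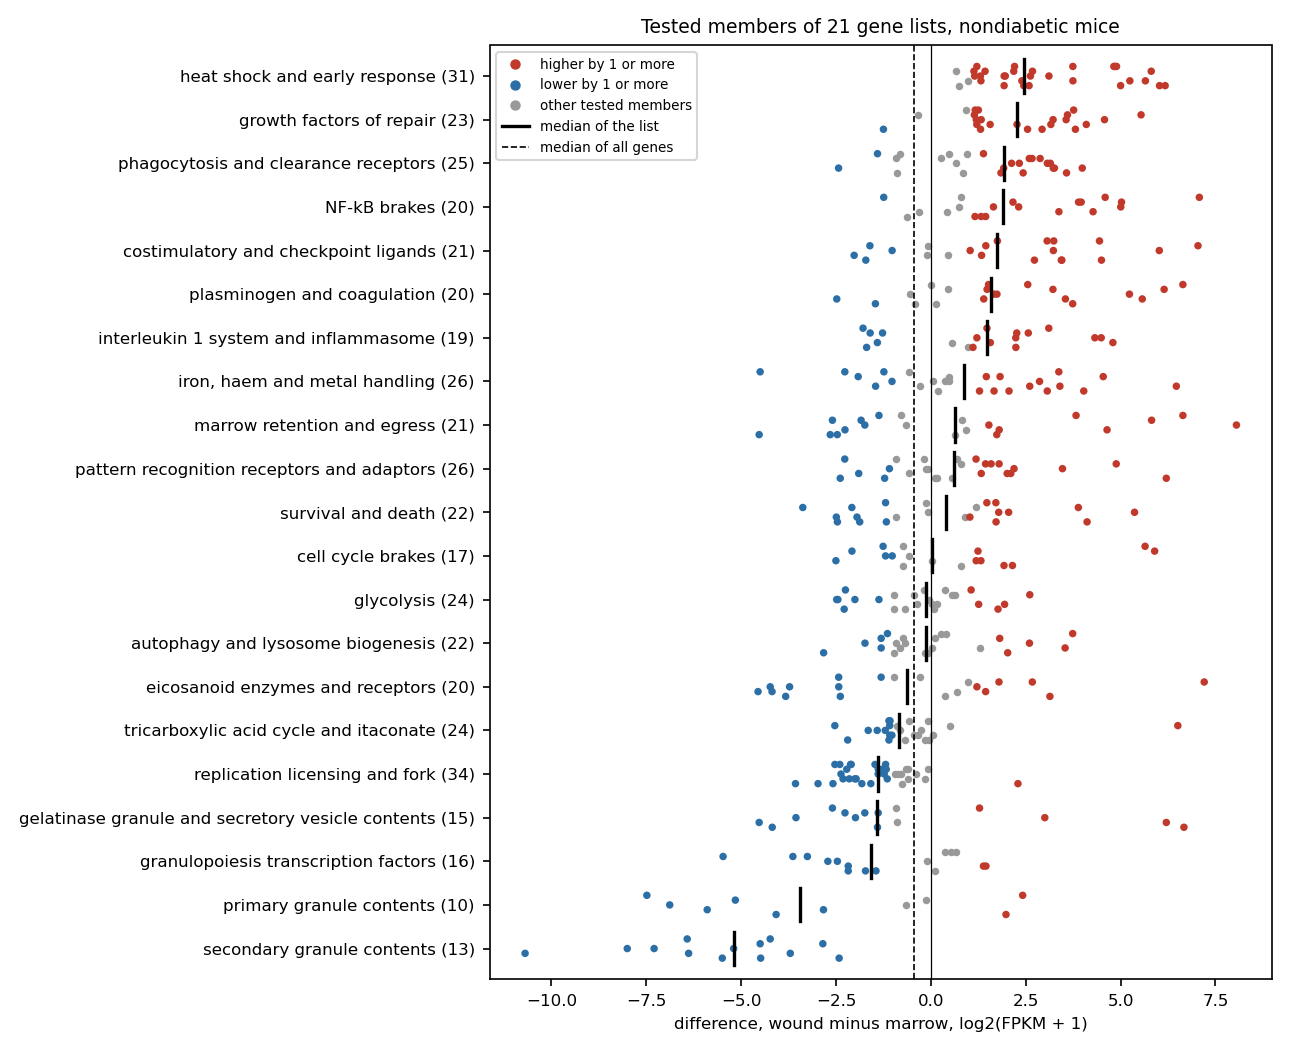
Difference between wound and marrow (x axis, log2(FPKM + 1)) of each tested member of 21 gene lists (y axis, number tested in brackets), with the median of each list as a solid bar and that of all genes as a dashed line. The medians run from 2.45 for heat shock and early response genes to -5.20 for secondary granule contents.

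Transcription factors and receptors of granulocyte formation followed the granule genes. Of 16 tested 9 were lower and 2 higher by at least 1 (median -1.58). Under either scaling 8 were lower and 4 higher, and with a pseudocount of 5, 9 and 0. Cebpe (chromosome 14, 55329200 to 55331011, mm9), the C/EBP factor of the secondary granule stage, was at 0.875 and 0.953 FPKM in the wound pools, against 90.9 and 77.9 FPKM in the marrow pools. Both wound values were under 1 FPKM (difference -5.48, SE 0.144, adjusted p = 1.67e-07). Myb, a factor of dividing progenitors, was at 1.51 and 1.17 FPKM in the wound pools, against 26.5 and 29.5 FPKM in the marrow pools. Myb was lower in both wound pools (difference -3.64, SE 0.107, adjusted p = 2.68e-07). Ikzf1, the zinc finger factor Ikaros, was at 9.44 and 9.53 FPKM in the wound pools, against 98.0 and 100.1 FPKM in the marrow pools. No value of Ikzf1 overlapped, and it was lower in wound cells (difference -3.25, SE 0.0285, adjusted p = 6.34e-09). Lmo4, a LIM-domain partner of such factors, was at 28.0 and 28.9 FPKM in the wound pools, against 159 and 164 FPKM in the marrow pools. Lmo4 stood lower in each wound pool (difference -2.46, SE 0.0353, adjusted p = 1.85e-08). Csf2rb, the shared receptor chain for GM-CSF, interleukin 3 and interleukin 5, rose less, at 114 and 117 FPKM in the wound pools, against 71.6 and 74.1 FPKM in the marrow pools. Csf2rb was higher in both wound pools (difference 0.65, SE 0.0348, adjusted p = 3.97e-06). With the settings used throughout, the members higher by at least 1 were Cd34 and Flt3. They are a surface protein and a receptor of progenitors that endothelial and dendritic cells also carry.

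Genes that copy DNA were lower in wound cells. Of 34 replication genes tested 23 were lower by at least 1, and 1 was higher (median -1.39). Quantile scaling left 19 lower by that much, median-ratio scaling 17 and a pseudocount of 5 left 16. Rrm2, a subunit of the enzyme that makes deoxynucleotides, was at 2.12 and 1.93 FPKM in the wound pools, against 34.6 and 34.9 FPKM in the marrow pools. No value of Rrm2 overlapped, and it was lower in wound cells (difference -3.57, SE 0.0474, adjusted p = 1.48e-08). Cdc45, a part of the replicative helicase, was at 1.21 and 1.61 FPKM in the wound pools, against 16.6 and 19.2 FPKM in the marrow pools. Cdc45 stood lower in each wound pool (difference -2.97, SE 0.102, adjusted p = 5.27e-07). Rfc2, a subunit of the clamp loader, was at 4.75 and 4.92 FPKM in the wound pools, against 33.5 and 34.2 FPKM in the marrow pools. Rfc2 was lower in both wound pools (difference -2.58, SE 0.0353, adjusted p = 1.64e-08). Mcm7, a helicase subunit, was at 6.21 and 6.68 FPKM in the wound pools, against 35.0 and 37.0 FPKM in the marrow pools. No value of Mcm7 overlapped, and it was lower in wound cells (difference -2.31, SE 0.0459, adjusted p = 5.58e-08). The exception was Mcm10, an initiation factor, on a locus of unknown strand at 7.67 and 12.5 FPKM in the wound pools, against 0.725 and 1.82 FPKM in the marrow pools, where the pools of each tissue also differed from each other (difference 2.29, SE 0.324, adjusted p = 0.000562).

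The stretches before Mcm5 and Mcm6, further helicase subunits with differences of -2.53 and -1.82, are shown because they hold the letters TTTNGCGC, a form of the word bound by E2F factors. They are chr8:75109259-75109508 on the plus strand and chr1:128359706-128359955 on the minus strand (RefSeq, GRCm38.p6), with the word in capitals on either strand.
Mcm5: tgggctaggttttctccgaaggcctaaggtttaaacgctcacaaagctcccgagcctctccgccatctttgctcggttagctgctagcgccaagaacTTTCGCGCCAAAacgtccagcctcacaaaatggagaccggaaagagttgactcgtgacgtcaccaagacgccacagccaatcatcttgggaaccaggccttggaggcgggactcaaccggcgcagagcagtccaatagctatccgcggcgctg
Mcm6: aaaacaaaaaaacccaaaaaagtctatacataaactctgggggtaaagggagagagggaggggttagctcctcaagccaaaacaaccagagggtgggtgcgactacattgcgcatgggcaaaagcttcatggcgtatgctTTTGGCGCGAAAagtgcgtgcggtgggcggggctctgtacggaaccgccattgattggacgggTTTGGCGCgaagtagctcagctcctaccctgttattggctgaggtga
Matches begin 153 and 149 bases before the Mcm5 start, where they overlap, and 110, 106 and 47 bases before the Mcm6 start. The word stood in 5 of 28 promoters found (17.9%, against 1.31% of the promoters of 27025 genes), and with the 50 bases after the start in 32.1% against 1.57%.

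Brakes on the cell cycle were split, with 7 of 17 tested higher and 5 lower by at least 1, and 2 lower under either scaling or with a pseudocount of 5 (median 0.02). Gadd45b, a stress-induced inhibitor, was at 482 and 497 FPKM in the wound pools, against 9.28 and 8.34 FPKM in the marrow pools. Gadd45b stood higher in each wound pool (difference 5.65, SE 0.0495, adjusted p = 6.34e-09). Cdkn1a, the kinase inhibitor p21, was at 212 and 214 FPKM in the wound pools, against 2.63 and 2.56 FPKM in the marrow pools on a locus opposite to the annotated strand (difference 5.90, SE 0.0301, adjusted p = 2.56e-09), and its difference on the annotated strand was 5.52. Btg1, an antiproliferative protein, was at 296 and 308 FPKM in the wound pools, against 65.7 and 68.8 FPKM in the marrow pools. Btg1 was higher in both wound pools (difference 2.15, SE 0.0403, adjusted p = 4.5e-08). Cdkn2c, the inhibitor p18, went down, at 0.772 and 0.771 FPKM in the wound pools, against 9.43 and 8.66 FPKM in the marrow pools. No value of Cdkn2c overlapped, and it was lower in wound cells (difference -2.50, SE 0.0625, adjusted p = 1.37e-07).

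Genes that hold neutrophils in the marrow or guide them out were taken next. Of 21 tested 8 were higher and 8 lower by at least 1 (median 0.63), beside 19.8% and 31.5% of all genes. Quantile scaling gave 10 higher and 7 lower, and median-ratio scaling 11 and 7. Cxcr4, the receptor that retains neutrophils in the marrow, was at 477 and 534 FPKM in the wound pools, against 253 and 279 FPKM in the marrow pools. Wound values lay above marrow values by a difference under 1 (0.92, SE 0.0714, adjusted p = 2.57e-05). Cxcr2, the receptor for Cxcl1 that draws them out, was at 30.7 and 33.3 FPKM in the wound pools, against 194 and 219.7 FPKM in the marrow pools on a locus opposite to the annotated strand (difference -2.65, SE 0.0967, adjusted p = 6.81e-07). Thbs1, the matrix protein thrombospondin 1, was at 1482 and 1528 FPKM in the wound pools, against 14.5 and 13.7 FPKM in the marrow pools. Thbs1 stood higher in each wound pool (difference 6.64, SE 0.108, adjusted p = 2.78e-08). Icam1, the endothelial and myeloid ligand of beta integrins, was at 241 and 244 FPKM in the wound pools, against 3.39 and 3.25 FPKM in the marrow pools. Icam1 was higher in both wound pools (difference 5.82, SE 0.0653, adjusted p = 1.1e-08). Selplg, a ligand of selectins, was lower, with a difference of -1.84. The integrin chains Itgal and Itgam had differences of -2.47 and -2.26. Csf3, the granulocyte colony-stimulating factor, was at 25.1 and 25.2 FPKM in the wound pools, against 0.0414 and 0.0502 FPKM in the marrow pools. No value of Csf3 overlapped, and it was higher in wound cells (difference 4.64, SE 0.0390, adjusted p = 6.21e-09).

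Receptors that sense microbes and their adaptors had 11 of 26 tested members higher and 5 lower by at least 1 (median 0.62). The C-type lectins rose together: Clec4e, which binds microbial glycolipids, was at 464 and 469 FPKM in the wound pools, against 40.8 and 41.7 FPKM in the marrow pools. Clec4e stood higher in each wound pool (difference 3.47, SE 0.0304, adjusted p = 6.34e-09). Clec4n, a receptor for fungal sugars, was at 55.9 and 59.5 FPKM in the wound pools, against 0.954 and 1.02 FPKM in the marrow pools. Clec4n was higher in both wound pools (difference 4.88, SE 0.0581, adjusted p = 1.16e-08). Clec4d, a related lectin, was at 618 and 649 FPKM in the wound pools, against 142 and 151 FPKM in the marrow pools. No value of Clec4d overlapped, and it was higher in wound cells (difference 2.11, SE 0.0489, adjusted p = 1.02e-07). The 5 members lower by at least 1 were Tlr5, the signalling adaptor Tirap (-2.39), the kinases Irak1 (-1.09) and Irak4 (-2.27), and Dhx58, an RNA-binding relative of RIG-I (-1.22). In the whole list 3 members were lower by that much with a pseudocount of 5 or under either scaling. Irak2, a related kinase, lay on a joint locus with a failed estimate and was not tested. Tlr2, a receptor for bacterial lipoproteins, and Tlr9, a receptor for bacterial DNA, had differences of 1.44 and 1.59. Tlr5, the flagellin receptor, had one of -1.90 on a locus of unknown strand. Tlr13, a sensor of bacterial ribosomal RNA, was at 50.0 and 50.3 FPKM in the wound pools, against 53.9 and 54.9 FPKM in the marrow pools, a difference of -0.12 that turned positive under quantile and median-ratio scaling. Tlr1 and Tlr7 were tested on loci weaker than another, joint or untested, locus that carries their name. In other lists the same held for Ceacam1, Nlrp1b, Trim30a, Pfkm, Gabarapl2, Birc2 and Itgax.

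The interleukin 1 system had 12 of 19 tested members higher and 5 lower by at least 1 (median 1.48). Il1b (chromosome 2, 129190306 to 129196875, mm9), the cytokine interleukin 1 beta, was at 3119 and 3419 FPKM in the wound pools, against 111 and 122 FPKM in the marrow pools. Its wound values were both high (difference 4.80, SE 0.0727, adjusted p = 2.27e-08). Il1rn, the antagonist of the same receptor, was at 710.2 and 669 FPKM in the wound pools, against 30.0 and 29.5 FPKM in the marrow pools. Il1rn stood higher in each wound pool (difference 4.49, SE 0.0605, adjusted p = 1.56e-08). Il1r2, the decoy receptor, was at 368 and 369 FPKM in the wound pools, against 129 and 135 FPKM in the marrow pools. Il1r2 was higher in both wound pools (difference 1.48, SE 0.0386, adjusted p = 1.6e-07). Nlrp3, the sensor of the inflammasome that matures interleukin 1 beta, was at 254 and 259.6 FPKM in the wound pools, against 11.7 and 12.1 FPKM in the marrow pools. No value of Nlrp3 overlapped, and it was higher in wound cells (difference 4.32, SE 0.0328, adjusted p = 5.44e-09). The inflammasome's adaptor and enzyme went the other way. Pycard, the adaptor, was at 4.45 and 5.14 FPKM in the wound pools, against 16.5 and 16.6 FPKM in the marrow pools. Pycard stood lower in each wound pool (difference -1.60, SE 0.0599, adjusted p = 7.61e-07). Casp1, the enzyme, was at 18.6 and 19.6 FPKM in the wound pools, against 49.4 and 55.6 FPKM in the marrow pools. Casp1 was lower in both wound pools (difference -1.41, SE 0.0627, adjusted p = 1.7e-06). Gsdmd, the pore protein cut by that enzyme, had a difference of -1.27, while Casp4, the caspase that senses cytosolic lipopolysaccharide in mice, rose by 2.24.

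Genes that restrain NF-kB or its targets were higher in 14 of 20 tested members by at least 1 and lower in 1 (median 1.91). Tnfaip3 (chromosome 10, 18720716 to 18735463, mm9), the ubiquitin-editing enzyme A20, was at 1020.0 and 1053 FPKM in the wound pools, against 7.20 and 6.22 FPKM in the marrow pools. Both wound values were far above both marrow values (difference 7.08, SE 0.0789, adjusted p = 1.1e-08). Nfkbia, which holds NF-kB in the cytoplasm, was at 347 and 384 FPKM in the wound pools, against 10.5 and 10.3 FPKM in the marrow pools. No value of Nfkbia overlapped, and it was higher in wound cells (difference 5.00, SE 0.0496, adjusted p = 8.07e-09). Nfkbiz, its nuclear relative, was at 439 and 463 FPKM in the wound pools, against 17.3 and 18.1 FPKM in the marrow pools. Nfkbiz stood higher in each wound pool (difference 4.59, SE 0.0418, adjusted p = 6.86e-09). Dusp2, a phosphatase of MAP kinases, was at 75.3 and 74.1 FPKM in the wound pools, against 1.28 and 1.37 FPKM in the marrow pools. Dusp2 was higher in both wound pools (difference 5.02, SE 0.0346, adjusted p = 5.44e-09). Zfp36, which speeds the decay of cytokine messages, was the member lower by at least 1, at 286 and 385 FPKM in the wound pools, against 818 and 755 FPKM in the marrow pools on a locus of unknown strand (difference -1.24, SE 0.139, adjusted p = 0.000173). Under quantile or median-ratio scaling 0 members of this list were lower by that much.

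Tnfaip3 and Nfkbia are shown because they had the largest differences among brakes with the letters GGG and TTCC with any 3 bases between them before their start, a form of the word bound by NF-kB. The stretches are chr10:19015411-19015660 on the minus strand and chr12:55492648-55492897 on the minus strand (RefSeq, GRCm38.p6), with the word in capitals on either strand.
Tnfaip3: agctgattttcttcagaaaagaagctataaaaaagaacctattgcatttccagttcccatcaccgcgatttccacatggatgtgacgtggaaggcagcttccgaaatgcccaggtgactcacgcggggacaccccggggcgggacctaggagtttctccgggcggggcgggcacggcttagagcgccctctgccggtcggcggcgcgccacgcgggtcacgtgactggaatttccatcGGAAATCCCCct
Nfkbia: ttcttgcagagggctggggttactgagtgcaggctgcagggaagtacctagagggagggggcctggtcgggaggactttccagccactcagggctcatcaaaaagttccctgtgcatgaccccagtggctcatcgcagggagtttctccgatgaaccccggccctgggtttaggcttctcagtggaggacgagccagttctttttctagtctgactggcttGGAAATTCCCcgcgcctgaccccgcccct
The word begins 12 bases before the Tnfaip3 start and 29 bases before the Nfkbia start. It stood in 6 of 20 promoters found (30.0%, against 5.31% of the promoters of 27025 genes), and with the 50 bases after the start in 30.0% against 6.30%. A match in these 4 lists is a match of letters and not a site of binding.

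Heat shock and early response genes had the highest median of the 21 lists other than cell type markers, with 28 of 31 tested higher by at least 1 and 0 lower (median 2.45), beside 19.8% of genes. Nr4a3, an orphan nuclear receptor induced within minutes of a stimulus, was at 72.9 and 71.8 FPKM in the wound pools, against 0.153 and 0.0993 FPKM in the marrow pools. No value of Nr4a3 overlapped, and it was higher in wound cells (difference 6.03, SE 0.0610, adjusted p = 8.22e-09). Atf3, a stress-induced transcription factor, was at 109 and 110.3 FPKM in the wound pools, against 0.602 and 0.469 FPKM in the marrow pools. Atf3 stood higher in each wound pool (difference 6.17, SE 0.0538, adjusted p = 6.34e-09). Ier3, an early response protein, was at 561 and 579.8 FPKM in the wound pools, against 11.1 and 9.67 FPKM in the marrow pools. Ier3 was higher in both wound pools (difference 5.65, SE 0.0700, adjusted p = 1.24e-08). Fos, a subunit of the factor AP-1, was high in both tissues at 420.4 and 415 FPKM in the wound pools, against 271 and 259 FPKM in the marrow pools, a difference under 1 (0.65, SE 0.0447, adjusted p = 1.37e-05). Hspa1b, an inducible chaperone, was at 371 and 392.2 FPKM in the wound pools, against 14.1 and 11.1 FPKM in the marrow pools. No value of Hspa1b overlapped, and it was higher in wound cells (difference 4.82, SE 0.103, adjusted p = 7.43e-08). The part of tissue handling in these values was not tested.

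Growth factors of repair were higher in 20 of 23 tested members by at least 1 and lower in 1 (median 2.27). With a pseudocount of 5, 11 were higher by at least 1 and the median was 0.97. Vegfa (chromosome 17, 46153942 to 46169326, mm9), the main growth factor of blood vessels, was at 217 and 218 FPKM in the wound pools, against 11.04 and 12.6 FPKM in the marrow pools. Vegfa stood higher in each wound pool (difference 4.10, SE 0.0582, adjusted p = 1.82e-08). Areg, a ligand of the epidermal growth factor receptor, was at 51.6 and 49.7 FPKM in the wound pools, against 0.138 and 0.0831 FPKM in the marrow pools. Areg was higher in both wound pools (difference 5.54, SE 0.0488, adjusted p = 6.34e-09). Pgf, a relative of Vegfa, was at 23.0 and 23.6 FPKM in the wound pools, against 0.0115 and 0.0290 FPKM in the marrow pools. No value of Pgf overlapped, and it was higher in wound cells (difference 4.58, SE 0.0453, adjusted p = 8.07e-09). Csf1, the growth factor of macrophages, was at 66.2 and 65.0 FPKM in the wound pools, against 3.72 and 3.78 FPKM in the marrow pools. Csf1 stood higher in each wound pool (difference 3.81, SE 0.0369, adjusted p = 7.69e-09). Osm, a cytokine of the interleukin 6 family, was already high in marrow at 112 and 117 FPKM in the wound pools, against 59.7 and 60.4 FPKM in the marrow pools. Osm was higher in both wound pools (difference 0.92, SE 0.0362, adjusted p = 9.57e-07). Tgfb1, which drives scar formation, was at 25.1 and 25 FPKM in the wound pools, against 33.5 and 30.1 FPKM in the marrow pools, a difference of -0.33 that turned positive under quantile and median-ratio scaling. Hgf, the hepatocyte growth factor, was the member lower by at least 1 (-1.25). Under either scaling or with a pseudocount of 5, 0 members were lower by that much.

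Genes of clotting and plasmin formation were higher in 13 of 20 tested members and lower in 2 by at least 1 (median 1.59). Plau, the plasminogen activator urokinase, was at 139 and 142 FPKM in the wound pools, against 22.8 and 23.3 FPKM in the marrow pools. Plau stood higher in each wound pool (difference 2.55, SE 0.0480, adjusted p = 4.57e-08). Plaur, its receptor, was at 212 and 225 FPKM in the wound pools, against 299 and 283 FPKM in the marrow pools, a difference of -0.41 that turned positive under median-ratio scaling. Procr, the receptor of protein C, was at 55.5 and 59.0 FPKM in the wound pools, against 0.225 and 0.224 FPKM in the marrow pools. Procr was higher in both wound pools (difference 5.57, SE 0.0450, adjusted p = 5.73e-09). Tgm2, a cross-linking transglutaminase, was at 223 and 231 FPKM in the wound pools, against 5.12 and 4.99 FPKM in the marrow pools. No value of Tgm2 overlapped, and it was higher in wound cells (difference 5.23, SE 0.0385, adjusted p = 5.44e-09). F3, the tissue factor that starts clotting, was at 29.6 and 30.1 FPKM in the wound pools, against 1.45 and 1.19 FPKM in the marrow pools. F3 stood higher in each wound pool (difference 3.74, SE 0.0808, adjusted p = 7.7e-08). Anxa2, a surface docking protein for plasminogen, fell, at 318 and 329 FPKM in the wound pools, against 860.4 and 926 FPKM in the marrow pools. Anxa2 was lower in both wound pools (difference -1.46, SE 0.0568, adjusted p = 9.03e-07). F7 and F10 were tested on loci weaker than their joint locus. Fibroblast and endothelial markers were higher in the same libraries, as given above, and their part in the growth factor and clotting lists was not tested.

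Lipid mediator genes moved both ways. Of 20 tested 6 were higher and 9 lower by at least 1 (median -0.63). Under either scaling 8 were higher and 8 lower. In the prostaglandin branch Ptgs2 (chromosome 1, 151947254 to 151955140, mm9), the inducible cyclooxygenase COX-2, was at 504 and 519 FPKM in the wound pools, against 2.75 and 2.22 FPKM in the marrow pools. No value of Ptgs2 overlapped, and it was higher in wound cells (difference 7.20, SE 0.0838, adjusted p = 1.16e-08). Ptgs1, the constitutive form, went down, at 2.43 and 2.95 FPKM in the wound pools, against 46.4 and 48.8 FPKM in the marrow pools. Ptgs1 stood lower in each wound pool (difference -3.72, SE 0.0759, adjusted p = 6.14e-08). In the leukotriene branch Alox5, the 5-lipoxygenase, was at 11.1 and 11.2 FPKM in the wound pools, against 219 and 223 FPKM in the marrow pools. Alox5 was lower in both wound pools (difference -4.19, SE 0.0465, adjusted p = 1.1e-08). Alox5ap, its helper protein, was at 234 and 252 FPKM in the wound pools, against 1251 and 1375 FPKM in the marrow pools. No value of Alox5ap overlapped, and it was lower in wound cells (difference -2.43, SE 0.0666, adjusted p = 1.97e-07). Lta4h, which makes leukotriene B4, was at 12.5 and 13.3 FPKM in the wound pools, against 321 and 332 FPKM in the marrow pools. Lta4h stood lower in each wound pool (difference -4.55, SE 0.0422, adjusted p = 7.03e-09). Ltb4r1, the receptor of that lipid, was at 5.30 and 5.79 FPKM in the wound pools, against 125 and 119 FPKM in the marrow pools. Ltb4r1 was lower in both wound pools (difference -4.23, SE 0.0524, adjusted p = 1.24e-08). Ltc4s, which makes the cysteinyl leukotrienes and is abundant in mast cells, rose by 2.67.

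Receptors for clearing dead cells and debris were higher in 15 of 25 tested members and lower in 2 by at least 1 (median 1.92). Cd36, a scavenger receptor for lipids, was at 63.5 and 64.7 FPKM in the wound pools, against 4.58 and 4.36 FPKM in the marrow pools. No value of Cd36 overlapped, and it was higher in wound cells (difference 3.57, SE 0.0427, adjusted p = 1.16e-08). Mfge8, a bridge between dying cells and phagocytes, was at 26.6 and 29.1 FPKM in the wound pools, against 0.805 and 0.826 FPKM in the marrow pools. Mfge8 stood higher in each wound pool (difference 3.99, SE 0.0567, adjusted p = 1.82e-08). Lgals3, a galectin of macrophages, was high in both tissues at 225 and 246 FPKM in the wound pools, against 195 and 193 FPKM in the marrow pools. Lgals3 was higher in both wound pools (difference 0.28, SE 0.0599, adjusted p = 0.00442). The members lower by at least 1 were the antibody receptor Fcgr4 (-1.41) and the integrin chain Itgb3 (-2.43). The list shares C1qa, C1qb, Mrc1 and Fcgr1 with the macrophage markers.

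Ligands that tune T cells were higher in 14 of 21 tested members and lower in 4 by at least 1 (median 1.75). Cd83, a surface protein of activated antigen-presenting cells, was at 346 and 344 FPKM in the wound pools, against 1.72 and 1.56 FPKM in the marrow pools. No value of Cd83 overlapped, and it was higher in wound cells (difference 7.04, SE 0.0953, adjusted p = 1.58e-08). Cd274, the checkpoint ligand PD-L1, was at 332 and 346 FPKM in the wound pools, against 4.47 and 4.03 FPKM in the marrow pools. Cd274 stood higher in each wound pool (difference 6.02, SE 0.0484, adjusted p = 5.73e-09). Pvr, a ligand of activating and inhibitory receptors, was at 36.3 and 37.5 FPKM in the wound pools, against 0.622 and 0.736 FPKM in the marrow pools. Pvr was higher in both wound pools (difference 4.50, SE 0.0576, adjusted p = 1.35e-08). Cd47 and its receptor Sirpa, which together restrain engulfment, were lower. Cd47 was at 60.2 and 61.3 FPKM in the wound pools, against 203 and 200.1 FPKM in the marrow pools. No value of Cd47 overlapped, and it was lower in wound cells (difference -1.71, SE 0.0430, adjusted p = 1.39e-07). Sirpa was at 96.5 and 96.2 FPKM in the wound pools, against 206 and 187 FPKM in the marrow pools. Sirpa stood lower in each wound pool (difference -1.02, SE 0.0498, adjusted p = 2.61e-06). Cd86, a costimulatory ligand, was higher by 3.06, with marrow pools apart at 15.8 and 35.3 FPKM.

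Glycolysis genes had 5 of 24 tested higher and 6 lower by at least 1, beside 19.8% and 31.5% of all genes. Their median of -0.12 turned positive under median-ratio scaling but not quantile scaling. Members differed by isoform. The glucose transporter Slc2a1 was at 47.1 and 50.7 FPKM in the wound pools, against 12.3 and 11.6 FPKM in the marrow pools. Slc2a1 was higher in both wound pools (difference 1.94, SE 0.0497, adjusted p = 1.49e-07). Slc2a3, the form of high affinity, was at 80.0 and 83.0 FPKM in the wound pools, against 322 and 337 FPKM in the marrow pools. No value of Slc2a3 overlapped, and it was lower in wound cells (difference -2.002, SE 0.0390, adjusted p = 5.22e-08). The hexokinase Hk3 was at 37.2 and 38.7 FPKM in the wound pools, against 214 and 209.8 FPKM in the marrow pools. Hk3 stood lower in each wound pool (difference -2.45, SE 0.0373, adjusted p = 2.29e-08). Hk2 had a difference of 0.03 that did not pass. Pfkfb3 and Pfkfb4, which set the level of a glycolytic activator, moved apart by differences of 1.26 and -2.48. Ldha, a lactate dehydrogenase chain, was at 229 and 239 FPKM in the wound pools, against 316 and 319.6 FPKM in the marrow pools, a difference of -0.44 that turned positive under median-ratio scaling.

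The citric acid cycle list had 1 of 24 tested members higher and 11 lower by at least 1 (median -0.85), with 3 lower under quantile or median-ratio scaling and 6 with a pseudocount of 5. Irg1 (chromosome 14, 103446194 to 103455790, mm9), which diverts the cycle to the antimicrobial acid itaconate, was at 669 and 694 FPKM in the wound pools, against 6.68 and 6.32 FPKM in the marrow pools. Both marrow values were low (difference 6.51, SE 0.0859, adjusted p = 1.45e-08). Idh1, the cytosolic isocitrate dehydrogenase, was at 10.2 and 10.7 FPKM in the wound pools, against 63.0 and 67.1 FPKM in the marrow pools. Idh1 was lower in both wound pools (difference -2.53, SE 0.0420, adjusted p = 2.98e-08). Acly, which exports the carbon of citrate for lipid synthesis, was at 12 and 11.8 FPKM in the wound pools, against 57.0 and 59.1 FPKM in the marrow pools. No value of Acly overlapped, and it was lower in wound cells (difference -2.19, SE 0.0425, adjusted p = 5.15e-08). Cs, citrate synthase, was at 39.3 and 42.3 FPKM in the wound pools, against 88.9 and 86.3 FPKM in the marrow pools. Cs stood lower in each wound pool (difference -1.08, SE 0.0446, adjusted p = 1.18e-06).

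Genes of iron, haem and metals were higher in 13 of 26 tested members and lower in 6 by at least 1 (median 0.88). Fth1, the ferritin heavy chain that stores iron, was at 10590.0 and 10610.0 FPKM in the wound pools, against 1005 and 1042 FPKM in the marrow pools, the highest level among the wound values of this list (difference 3.37, SE 0.0948, adjusted p = 2.19e-07). Hmox1, which breaks down haem, was at 188 and 199 FPKM in the wound pools, against 25.7 and 25.7 FPKM in the marrow pools. Hmox1 was higher in both wound pools (difference 2.86, SE 0.0368, adjusted p = 1.36e-08). Mt2, a metal-binding metallothionein, was at 199 and 188 FPKM in the wound pools, against 1.21 and 1.18 FPKM in the marrow pools. No value of Mt2 overlapped, and it was higher in wound cells (difference 6.47, SE 0.109, adjusted p = 3.1e-08). Slc39a14, an importer of zinc and iron, was at 24.98 and 28.5 FPKM in the wound pools, against 0.221 and 0.158 FPKM in the marrow pools. Slc39a14 stood higher in each wound pool (difference 4.54, SE 0.0747, adjusted p = 2.9e-08). The iron exporter Slc40a1 was lower, with a difference of -2.27.

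Autophagy and lysosome genes had 5 of 22 tested members higher and 5 lower by at least 1, beside 19.8% and 31.5% of all genes. Their median of -0.12 turned positive under quantile and median-ratio scaling. Sqstm1, the cargo receptor p62, was at 374 and 397 FPKM in the wound pools, against 32.9 and 31.7 FPKM in the marrow pools. Sqstm1 was higher in both wound pools (difference 3.54, SE 0.0407, adjusted p = 1.13e-08). Vmp1, a membrane protein of autophagosome formation, was at 291 and 311 FPKM in the wound pools, against 21.4 and 21.9 FPKM in the marrow pools. No value of Vmp1 overlapped, and it was higher in wound cells (difference 3.74, SE 0.0402, adjusted p = 1.05e-08). Wipi1, which marks forming autophagosomes, fell, at 3.50 and 3.66 FPKM in the wound pools, against 31.2 and 31.8 FPKM in the marrow pools. Wipi1 stood lower in each wound pool (difference -2.83, SE 0.0376, adjusted p = 1.48e-08). Lamp2, a lysosomal membrane protein, had a difference of -0.08 that did not pass and turned positive under both scalings.

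Of 22 survival and death genes tested 9 were higher and 8 lower by at least 1 (median 0.41). Over all genes the shares were 19.8% and 31.5%. Under either scaling 10 of the list were higher and 6 lower by that much. The genes named next were all higher in wound cells, while the lowest difference of the list was -3.375. Pmaip1, the death-promoting protein Noxa, was at 110.4 and 110.3 FPKM in the wound pools, against 1.64 and 1.75 FPKM in the marrow pools. Pmaip1 was higher in both wound pools (difference 5.37, SE 0.0442, adjusted p = 5.98e-09). Tnfrsf1b, a receptor for TNF, was at 153 and 163 FPKM in the wound pools, against 8.15 and 8.17 FPKM in the marrow pools. No value of Tnfrsf1b overlapped, and it was higher in wound cells (difference 4.12, SE 0.0432, adjusted p = 9.44e-09). Among protective genes Mcl1, on which neutrophils depend, was at 213 and 200.3 FPKM in the wound pools, against 100.4 and 101 FPKM in the marrow pools. Mcl1 stood higher in each wound pool (difference 1.03, SE 0.0412, adjusted p = 1.04e-06). Birc3, an inhibitor of apoptosis, was at 272 and 275 FPKM in the wound pools, against 63.6 and 67.0 FPKM in the marrow pools. Birc3 was higher in both wound pools (difference 2.05, SE 0.0369, adjusted p = 3.87e-08).

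The same contrast in diabetic mice comes from separate animals and shares no library with the nondiabetic one. Of 6396 genes that passed with a difference of at least 1 in nondiabetic mice and had a diabetic value, 6270 had the same sign in diabetic mice and 4778 also passed there with at least 1. The difference between the genotypes' differences passed in 59.8% of 12460 genes, in 4.57% with a value of at least 1 and in 4.50% with a value of -1 or less. Dmbt1, a mucosal scavenger protein, was at 10.0 and 11 FPKM in the wound pools, against 0.00951 and 0 FPKM in the marrow pools, and at 0.00505 and 0.0247 FPKM in the diabetic wound pools and 0 and 0 FPKM in the diabetic marrow pools. It was thus measured above 1 FPKM in the nondiabetic wound pools alone among these 4 groups (nondiabetic minus diabetic 3.50, SE 0.0838, adjusted p = 1.79e-05). Fosb, an AP-1 subunit, was at 64.8 and 64.9 FPKM in the wound pools, against 4.12 and 3.73 FPKM in the marrow pools, and at 86.7 and 85.7 FPKM in the diabetic wound pools and 52.0 and 53.1 FPKM in the diabetic marrow pools. Here the diabetic marrow pools were high and the nondiabetic ones low, while all wound pools were high (nondiabetic minus diabetic 3.04, SE 0.0602, adjusted p = 1.16e-05). Ppbp, a platelet chemokine, was at 29.1 and 28.4 FPKM in the wound pools, against 5.36 and 4.65 FPKM in the marrow pools, and at 244 and 237 FPKM in the diabetic wound pools and 0.453 and 0.345 FPKM in the diabetic marrow pools. Its rise was in both genotypes and smaller in nondiabetic mice (nondiabetic minus diabetic -5.12, SE 0.0952, adjusted p = 1.16e-05). Acvrl1, a receptor of the TGF-beta family, was at 26.8 and 32.4 FPKM in the wound pools, against 211 and 217 FPKM in the marrow pools, and at 5.78 and 4.48 FPKM in the diabetic wound pools and 3.17 and 2.29 FPKM in the diabetic marrow pools. Its nondiabetic marrow pools stood above all other libraries (nondiabetic minus diabetic -3.54, SE 0.219, adjusted p = 0.00011).

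**Figure D4:**
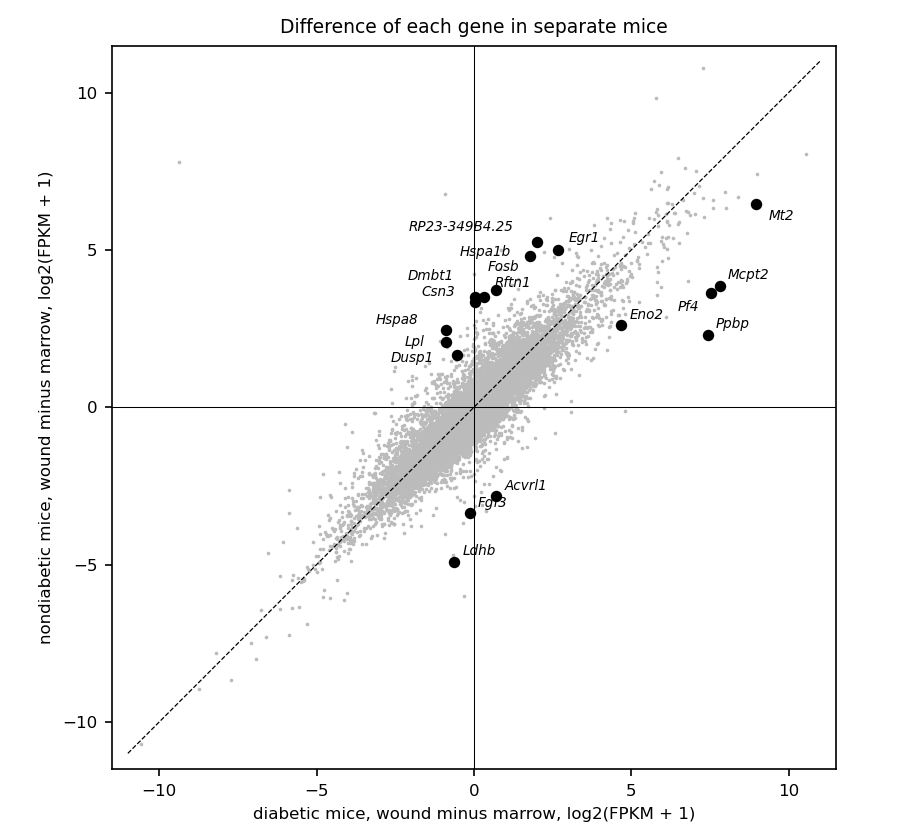
Difference between wound and marrow in nondiabetic mice (y axis) against that in diabetic mice (x axis), both on the log2(FPKM + 1) scale, with each gene as a point and the dashed line at equal values. Black points name genes whose difference changed by at least 2 with genotype among those described, such as Dmbt1 above the line (3.50) and Ppbp below it (-5.12).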

How the data were processed

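RNA was measured by sequencing in pooled Gr-1+ cells, 1 lane a library per the labels. The authors deposited a table of FPKM per assembled locus, with a status for each value, made with TopHat and Cufflinks on mouse build mm9, per the submitters' processing notes; their versions are not given in the sources used here. FPKM are not counts, so no count test was run, and the read number behind a value is unknown.

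For each gene name the locus with the highest mean FPKM over the 4 nondiabetic libraries was used. Some of these loci were much shorter than the annotated gene, and their FPKM may not stand for all of it. Examples were Prtn3 and Col1a2 (225 bp each), Hspa8 (441 bp), Il1rn (661 bp), Mmp9 (674 bp), Mcm7 (1139 bp) and Cd47 (1211 bp). Genes that reached an FPKM of 1 in 2 or more of these libraries were tested with limma 3.58.1 (R 4.3.3) on log2(FPKM + 1), with trend, in a fit of all 4 groups that left 4 residual degrees of freedom, and p-values were adjusted over all 12473 genes. A missing diabetic value left 179 of these genes with fewer libraries in the fit. The strand of a locus was inferred from the order of locus numbers, which matched the annotated strand in 94.9% of 14235 member loci, and was unknown for 12195. Gene positions are from GENCODE vM1 (mm9) and promoters from RefSeq (GRCm38.p6). The same fit was tested on simulated data for the wound and marrow comparison of 12473 genes, where it called 88 of 100 genes moved 2-fold, 96 of 100 moved 4-fold and 8 of 12273 unmoved. The moves were made on the log2(FPKM + 1) scale, with no shift of scaling between tissues. In the data 88.4% of genes passed, so this simulation cannot give their rate of false calls.

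The members and gene lists were chosen with earlier results of these data known. Genes named in the text were the 15 largest differences each way as described with the plot by library, in each list the 4 of highest mean level and the 3 of largest difference, in each marker list the 3 of highest level, the 6 genotype differences of largest size in each sign, and a fixed few such as Lepr and Ly6g; others were named after their values were seen. Tables and plots were made with Python 3.11.15, pandas 2.3.3 and matplotlib 3.10.9. Lists are described by counts and medians with no set test. Alternatives covered the pseudocount, the limit on low values, the scaling, the model, the choice of locus, the replicate block and each library left out. Some members of these lists are not reported here by name.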

Additional observations from a re-analysis of the deposited data

Results flagged for a closer look

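In 18 genes the wound minus marrow difference itself differed between nondiabetic and diabetic mice by at least 2 on the log2(FPKM + 1) scale, by limma's test of that difference. Values below are nondiabetic minus diabetic. The genes looked at were those named by the rule, so 18 is no count over all genes.

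Negative values mean a smaller rise or a larger fall in nondiabetic mice, or a fall against a rise. The platelet chemokine genes Ppbp and Pf4 rose in both genotypes, by 2.31 and 3.64 in nondiabetic mice and by 7.43 and 7.54 in diabetic mice, with differences between genotypes of -5.12, SE 0.0952, adjusted p = 1.16e-05 for Ppbp and -3.89, SE 0.0888, adjusted p = 1.61e-05 for Pf4. Mcpt2, a mast cell protease, rose by 3.87 in nondiabetic and 7.81 in diabetic mice (difference -3.94, SE 0.484, adjusted p = 0.00102). With a pseudocount of 0.1 this no longer passed (-3.65, adjusted p = 0.121 by limma). Mt2, the metallothionein, had -2.49, SE 0.154, adjusted p = 0.000109. Eno2, an enolase, had -2.06, SE 0.0855, adjusted p = 3.87e-05. Ldhb, a lactate dehydrogenase chain, had -4.91 in nondiabetic mice and -0.64 in diabetic mice (difference -4.27, SE 0.519, adjusted p = 0.00098), with nondiabetic marrow pools apart at 108 and 229.9 FPKM. Acvrl1 was lower in wound cells in nondiabetic mice (-2.82) and higher in diabetic mice (0.72), a difference of -3.54, SE 0.219, adjusted p = 0.00011, with 211 and 217 FPKM in nondiabetic marrow. Fgf3, a fibroblast growth factor, was listed at 0 in both nondiabetic wound pools and at 11.99 and 7.04 FPKM in nondiabetic marrow (difference -3.22, SE 0.311, adjusted p = 0.000429).

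Positive values mean a larger rise in nondiabetic mice, or a rise against a fall, and can come from the level in either tissue. Early response and chaperone genes were several of them, with Dusp1 at 2.17, Egr1 at 2.33, Fosb at 3.04, Hspa1b at 3.02 and Hspa8 at 3.34 (limma adjusted p at most 0.00038). Each of these was higher in diabetic than in nondiabetic marrow. Egr1 was at 59.6 and 60.3 against 11.64 and 11.55 FPKM there, Dusp1 at 577 and 570 against 159 and 155 FPKM. Hspa8, on a locus of 441 bp, was at 226 and 246 against 50.0 and 30.8 FPKM. In the wound pools Fosb was higher in diabetic mice and the others in nondiabetic mice, Egr1 at 402.4 and 401.5 against 388 and 387 FPKM. Dusp1 and Hspa8 were lower in wound than in marrow in diabetic mice (-0.52 and -0.89) and higher in nondiabetic mice (1.65 and 2.45). Lpl, lipoprotein lipase, did the same (2.08 in nondiabetic and -0.88 in diabetic mice, difference 2.95, SE 0.0573, adjusted p = 1.16e-05). Dmbt1 (3.50), Csn3, a milk casein (3.29), and Rftn1, a membrane raft protein (3.18), were under 1 FPKM in all 4 diabetic pools. The Rftn1 locus has an unknown strand. RP23-349B4.25, a gene model with no annotation used here, had 3.24, SE 0.170, adjusted p = 6.95e-05.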

How the results depend on the processing

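The counts for wound against marrow, 11025 genes in all, stayed within 1.5 times under most settings. With FPKM of at least 5 required, 8104 genes were tested, of which 2102 were higher, 1309 of them by at least 1, and 5347 were lower. The median was then -0.72. With a pseudocount of 5, 1074 were higher and 2250 lower by at least 1, and under median-ratio scaling 2392 were lower by at least 1 against 3193 higher, so that the balance turned round (2475 higher and 3928 lower as reported). Of the genotype difference, median-ratio scaling gave 3729 positive and 3255 negative calls, 853 and 279 of them by at least 1, against 2520 and 4930, and 569 and 561, as reported. By at least 1, a pseudocount of 5 gave 223 positive and 192 negative, one of 0.1 gave 999 negative, and the higher FPKM limit gave 354 positive. The cause of these changes was not tested. Leaving out 1 nondiabetic library gave 10633 to 10763 calls, 3817 to 3929 higher, 6768 to 6926 lower, 2446 to 2478 higher and 3848 to 3973 lower by at least 1, and for the genotype difference 6604 to 6917 calls, 2252 to 2392 positive, 4282 to 4654 negative, 550 to 575 positive and 542 to 598 negative by at least 1; the lone pool is then assumed to vary like the other groups.

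Pool numbers were not stated to pair wound with marrow, though the series' design text describes 2 sets of 5 nondiabetic mice pooled for both tissues. Deviations of pools with the same number correlated at -0.333 in nondiabetic and -0.186 in diabetic mice over 7230 genes. With the replicate block 10963 genes passed (3967 higher, 6996 lower) and 6849 for the genotype difference, and with crossed numbers, an alternative chosen after seeing the data, 10942 and 6702.

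Direction turned for Lamp2 (0.33 under quantile and 0.45 under median-ratio scaling), Tgfb1 (0.27 and 0.18), Tlr13 (0.41 and 0.40), Ldha (0.0824) and Plaur (0.11), the last 2 under median-ratio scaling, and for the genotype difference of Rftn1 on its annotated strand (-0.34), also chosen after seeing the data. Without marrow pool 1, Dsg3 (0.46, adjusted p = 0.0624 by limma), Mylpf (-0.51, 0.0501), Sfn (0.12, 0.0681) and Suclg2 (0.25, 0.117) no longer passed. Sfn and Suclg2 also failed with the replicate block and with nondiabetic libraries alone. Under median-ratio scaling Elane no longer passed (-0.14, adjusted p = 0.175). Of the list counts, 1204 stayed within 1.5 times and 50 did not. Over the named genes and these settings, 3237 values kept direction and call, 8 turned, 17 no longer passed and 3 newly passed.

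Low levels limit what can be said. The added 1 compresses differences of genes under a few FPKM, and the unknown depth allows no counting interval. Genes at the top of the range, such as S100a9 in marrow, had no estimate.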
